A study of Homo sapiens with 12 samples.

Results

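The E2F transcription factors and the retinoblastoma (RB) pocket proteins were followed as 10 genes chosen by name: E2F1, E2F2, E2F3, E2F4, E2F7, E2F8, the dimer partner TFDP1, and the pocket protein genes RB1, RBL1 and RBL2. Each had 1 row among the 19504 named gene rows of the count table, and all 10 passed the filter on low counts. They were read in 4 groups of 3 libraries each, made from established acute myeloid leukaemia lines. MV4-11 has a duplicated segment (internal tandem duplication) in FLT3, a growth factor receptor kinase. OCI-AML3 lacks that duplication and has a mutant NPM1. Each line received either DMSO, the solvent, or 5 nM AC220 (quizartinib, an inhibitor of FLT3), and every culture was harvested at 24 h. The comparison asks how the transcripts of this control circuit answer to FLT3 inhibition in a line with the FLT3 duplication and in a line without it. Each line is 1 cell line, so a difference between the lines is a difference between these cultures, and FLT3 status cannot be told apart from their other differences.

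E2F factors bind DNA, mostly as heterodimers with a DP partner such as TFDP1, at the promoters of genes for DNA replication and cell division. E2F1, E2F2 and E2F3 act mainly as activators, E2F4 acts mainly as a repressor together with RBL1 (p107) and RBL2 (p130), and E2F7 and E2F8 are atypical repressors that bind DNA without a DP partner. RB1 masks the activators until cyclin-dependent kinases phosphorylate it, while RBL1 or RBL2 with E2F4 join the MuvB core to form the DREAM complex, which silences cell cycle genes in resting cells. Several of these genes are E2F targets themselves, which makes the circuit feed back on its own parts. Receptor kinases such as FLT3 feed into it in myeloid blasts through cyclin D and the kinases CDK4 and CDK6.

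Because several members are known E2F targets, the bases just before the start of transcription are shown for the members whose RefSeq promoter window holds an E2F word, and for RBL2, whose window holds none. The words searched were TTTCCCGC, TTTCGCGC, TTTGCCGC and TTTGGCGC, on both strands. Each line gives the 120 bases before the annotated start, 5′ to 3′ on the gene's strand, from RefSeq on GRCh38.p14. Capitals mark an E2F word, which is spelled as its reverse complement where it lies on the other strand.
E2F1: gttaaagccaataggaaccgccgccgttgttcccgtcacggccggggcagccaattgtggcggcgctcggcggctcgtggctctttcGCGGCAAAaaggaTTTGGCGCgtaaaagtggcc
E2F2: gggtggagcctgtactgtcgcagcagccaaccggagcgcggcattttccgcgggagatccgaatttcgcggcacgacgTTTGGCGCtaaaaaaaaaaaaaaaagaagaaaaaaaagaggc
E2F3: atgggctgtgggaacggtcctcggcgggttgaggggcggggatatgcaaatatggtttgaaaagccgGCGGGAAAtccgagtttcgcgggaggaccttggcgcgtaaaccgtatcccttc
TFDP1: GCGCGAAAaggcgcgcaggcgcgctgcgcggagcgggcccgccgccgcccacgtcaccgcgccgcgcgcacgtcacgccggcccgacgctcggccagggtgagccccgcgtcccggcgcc
RBL1: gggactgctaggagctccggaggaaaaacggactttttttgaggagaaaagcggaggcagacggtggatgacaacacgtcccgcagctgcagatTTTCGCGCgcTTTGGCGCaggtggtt
RBL2: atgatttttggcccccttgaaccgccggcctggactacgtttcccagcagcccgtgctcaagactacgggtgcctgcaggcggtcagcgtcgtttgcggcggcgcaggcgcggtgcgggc
The stretch of E2F1 lies at chr20:33686386-33686505 (minus strand), that of E2F2 at chr1:23531234-23531353 (minus strand) and that of E2F3 at chr6:20401759-20401878 (plus strand). The stretch of TFDP1 lies at chr13:113584633-113584752 (plus strand), that of RBL1 at chr20:37095998-37096117 (minus strand) and that of RBL2 at chr16:53434351-53434470 (plus strand). All 6 lie upstream of an annotated transcript start, and that of TFDP1 precedes a start 65 bases inside the gene's outermost RefSeq start. Counted from the start, the words begin at -33 and -20 in E2F1, at -42 in E2F2, at -53 in E2F3, at -120 in TFDP1, and at -26 and -16 in RBL1. Windows of 300 bases (250 before the start and 50 past it) were listed for 9 of the 10 members, 11 windows in all. The single RB1 window belongs to an internal start, 172699 bases past the first RefSeq start of the gene, so the main RB1 promoter was not searched. Of the other 8 members, 5 held at least 1 word. The windows of E2F4 and E2F7, both windows of RBL2, the other window of E2F3 and the internal window of RB1 held none of the 4 words. Over all 35116 windows of the table, 3.31% held at least 1 of the words. The words of the CHR element, another cell cycle promoter element (TTTGAA and TTCGAA, both strands), occurred at -65 in E2F3 and at 25 past the start in RBL2, and in 16.4% of all windows. No matches of the different words overlapped in the members' windows. A match is a description of the letters, not a measured binding site.

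Libraries held 10877198 to 16918761 counts, and the MV4-11 AC220 libraries (11419454 to 13328968) were shallower than those of MV4-11 DMSO (15041493 to 16918761). Levels are given as CPM, a gene's counts divided by its library's total and multiplied to a common size, scaled by TMM, edgeR's library scaling factor. Since 3' tag counts do not grow with transcript length, they were not divided by length. In the table of all genes, 12392 passed the filter and were tested. Separate cultures for the replicates are not stated in the labels, so each p-value reflects only how far these libraries scatter, which may be technical. In these bulk cultures, fewer cells that hold a transcript and less of it per cell cannot be told apart. The 10 myeloid markers all had counts in every group, but CD14 had only 1 count over the MV4-11 AC220 libraries. ITGAM had 17 and 16 counts over the OCI-AML3 DMSO and AC220 libraries. Of 13 measured markers of other lineages, CD3E, HBB, HBA1, GATA1 and EPCAM had 0 counts in all 12 libraries. Others of that list had counts, among them KRT8 at a mean of 10.6 CPM in MV4-11 DMSO and 0.177 in OCI-AML3 DMSO.

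In MV4-11, transcripts of 7 of the 10 members were lower after AC220, RBL2 was higher, and E2F3 and RB1 did not pass the test. The falls covered the activators E2F1 and E2F2, the atypical repressors E2F7 and E2F8, the dimer partner TFDP1, the pocket protein gene RBL1 and, by a small amount, E2F4. With the quasi-likelihood test of edgeR and p-values adjusted by Benjamini-Hochberg (threshold 0.05), 8 of 10 members were called, against 58.3% of all tested genes. Of the members 7 were lower, against 26.9% of all genes, and 1 was higher, against 31.5%. The median log2 fold change of the members was -1.46, and that of all tested genes was 0.07.

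**Figure D1:**
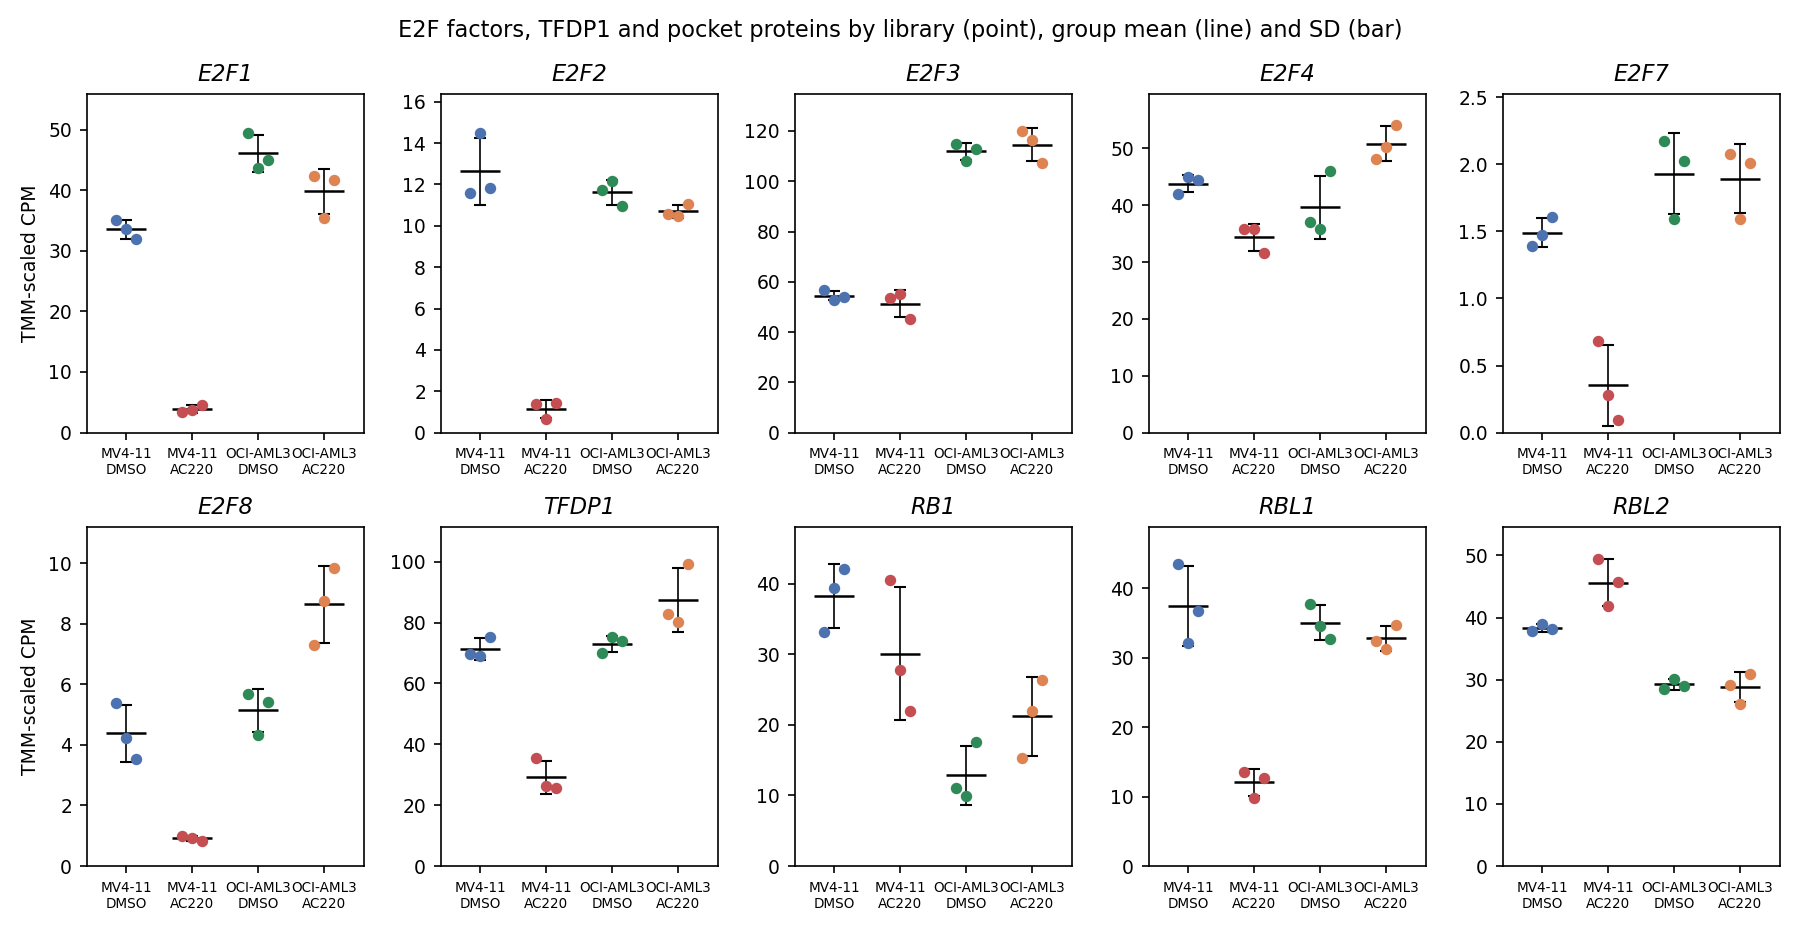
Level of each of the 10 members in the 12 libraries, in TMM-scaled CPM from 0 (vertical axis), by line and treatment (horizontal axis); points are libraries, the line is the group mean and the bar the SD. In MV4-11 AC220, E2F1 sits between 3.42 and 4.63 CPM and RBL1 between 9.77 and 13.6, below every other library, while the RB1 groups overlap from neighbour to neighbour.

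Among the activators, E2F1 stood at 35.0, 33.6 and 31.9 CPM in the MV4-11 DMSO libraries and at 3.42, 3.72 and 4.63 CPM in the AC220 libraries. All 3 treated libraries lay far below the controls. E2F1 fell 8.58-fold (log2 fold change -3.10, SE 0.131, adjusted p = 2.97e-18). E2F2, an activator closely related to E2F1, had 11.6, 14.5 and 11.8 CPM under DMSO and 1.37, 0.651 and 1.45 CPM under AC220. These groups did not overlap either, and the treated level rests on 41 counts over the 3 libraries. E2F2 fell 10.7-fold (log2 fold change -3.42, SE 0.217, adjusted p = 4.49e-14). E2F3, the third activator, had 56.5, 52.8 and 54.1 CPM under DMSO and 53.6, 55.0 and 45.2 CPM under AC220. Its groups overlapped, and the log2 fold change of -0.09 (95% interval -0.25 to 0.08, adjusted p = 0.361) did not pass the test. E2F3 makes a long and a short isoform from different starts, and tags at the 3' end do not separate them.

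The atypical repressors were the least abundant members. E2F8 had 5.39, 4.23 and 3.53 CPM in MV4-11 under DMSO and 0.987, 0.930 and 0.817 CPM under AC220, which are 13, 10 and 9 counts. The groups were apart, and E2F8 fell 4.77-fold (log2 fold change -2.25, SE 0.281, adjusted p = 6.28e-08). E2F7 had 1.39, 1.48 and 1.61 CPM under DMSO, and 9, 3 and 1 counts under AC220, or 0.683, 0.279 and 0.0908 CPM. Every treated library was below every control, with most of the treated counts in replicate 1. E2F7 fell 3.96-fold (log2 fold change -1.99, SE 0.478, adjusted p = 0.000745). Without MV4-11 AC220 replicate 1 its log2 fold change was -2.96 (adjusted p = 0.000137), and the adjusted p lay between 0.000137 and 0.00574 over the alternatives tried.

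E2F4, the factor of the DREAM complex, had 42.0, 44.9 and 44.4 CPM in MV4-11 under DMSO and 35.8, 35.7 and 31.6 CPM under AC220. The treated libraries were lower without overlap, by 1.27-fold (log2 fold change -0.35, SE 0.0960, adjusted p = 0.00271). TFDP1, which pairs with the activators and with E2F4, had 69.7, 68.9 and 75.3 CPM under DMSO and 35.4, 26.3 and 25.6 CPM under AC220. Treated replicate 1 was the highest of its group and still far below the controls. TFDP1 fell 2.44-fold (log2 fold change -1.29, SE 0.103, adjusted p = 2.32e-11).

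The 3 pocket protein genes went different ways in MV4-11. RBL1, whose protein p107 accumulates in cycling cells, had 43.5, 32.1 and 36.6 CPM under DMSO and 13.6, 9.77 and 12.7 CPM under AC220. RBL1 fell 3.10-fold (log2 fold change -1.63, SE 0.124, adjusted p = 2.73e-12), with no overlap. RBL2, whose protein p130 is the pocket protein of resting cells, had 37.8, 39.0 and 38.1 CPM under DMSO and 49.4, 41.9 and 45.7 CPM under AC220. All treated libraries were higher than all controls, and RBL2 rose by 0.25 on the log2 scale (SE 0.0900, adjusted p = 0.0167). That call was lost without MV4-11 DMSO replicate 1 or 3, without AC220 replicate 1 (log2 fold change 0.19, adjusted p = 0.0903) or 3, and when only the 6 MV4-11 libraries were fitted (0.20), with adjusted p between 0.00830 and 0.0903 over the alternatives. RB1, the tumour suppressor that masks the activators, had 33.2, 39.4 and 42.0 CPM under DMSO and 40.5, 27.8 and 22.0 CPM under AC220. Treated replicate 1 sat among the controls and the other treated libraries below them. The log2 fold change of RB1 was -0.33 (95% interval -0.96 to 0.30, adjusted p = 0.333). Without MV4-11 AC220 replicate 1 it was -0.62 (adjusted p = 0.0780, and 0.0780 to 0.568 over the alternatives).

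RBL2 shares 610 exon bases with AKTIP, a gene on the opposite strand, in the GENCODE annotation, and the strand setting of the counting is not given in the sources used here. AKTIP had 13.8, 13.2 and 13.5 CPM in MV4-11 under DMSO and 19.1, 12.9 and 15.9 CPM under AC220. Its groups overlapped, and its log2 fold change was 0.25 (adjusted p = 0.150). How far reads of AKTIP entered the RBL2 count was not tested. RBL2 also shares 721 exon bases with AC007342.6, another gene annotated on the opposite strand, which was not analysed here. RBL1 shares 211 exon bases with an antisense transcript that was not analysed here, and E2F8 shares 7 with another.

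In OCI-AML3, AC220 gave calls for 2 of the 10 members, E2F8 and E2F4, both higher. The background was 3.95% of all tested genes called, 3.44% higher and 0.508% lower, and no member was lower. At an unadjusted p under 0.05, 4 members were higher and 1 was lower, and DESeq2 and limma-voom each called the same numbers as edgeR, 2 higher and 0 lower. The median log2 fold change of the members was 0.01, against -0.00 for all tested genes. Of all 489 genes called, 426 were higher and 63 lower, or 363 and 126 with median-ratio size factors. E2F8 had 5.67, 4.33 and 5.42 CPM under DMSO and 7.30, 8.74 and 9.84 CPM under AC220. All treated libraries were above all controls, and E2F8 rose 1.68-fold (log2 fold change 0.75, SE 0.199, adjusted p = 0.0304). E2F4 had 37.1, 35.8 and 46.0 CPM under DMSO and 48.1, 50.2 and 54.1 CPM under AC220. DMSO replicate 3 was close to the treated libraries without reaching them, and E2F4 rose 1.28-fold (log2 fold change 0.36, SE 0.0944, adjusted p = 0.0303).

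Both OCI-AML3 calls depended on single libraries. They were lost when DMSO replicate 1, DMSO replicate 2, AC220 replicate 2 or AC220 replicate 3 was left out, and in limma on the authors' deposited log2 values. Over the alternatives the adjusted p ran from 0.00505 to 0.217 for E2F4 and from 0.0123 to 0.207 for E2F8. Without DMSO replicate 1, DMSO replicate 2, AC220 replicate 2 and AC220 replicate 3 in turn, 13, 15, 116 and 22 of all genes were called. Without DMSO replicate 3, AC220 replicate 1 or MV4-11 AC220 replicate 1, which also enters the estimate of the spread, these numbers were 998, 943 and 1136.

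The other 8 members did not pass the test in OCI-AML3. E2F1 had 49.5, 43.7 and 45.0 CPM under DMSO and 42.3, 35.5 and 41.6 CPM under AC220. The treated libraries were lower without overlap, with a log2 fold change of -0.21 (95% interval -0.41 to -0.01, adjusted p = 0.204). E2F2 ranged from 11.0 to 12.2 CPM under DMSO and from 10.5 to 11.1 CPM under AC220 (log2 fold change -0.12, adjusted p = 0.726). E2F3 ranged from 108 to 115 CPM and from 107 to 120 CPM (0.03, adjusted p = 0.854). Its interval, -0.12 to 0.19, was the narrowest of the members in this line. TFDP1 had 70.2, 75.2 and 74.0 CPM under DMSO and 82.9, 80.2 and 99.4 CPM under AC220, apart but with 1 high treated library (log2 fold change 0.26, adjusted p = 0.115). It passed without a filter on low counts and without MV4-11 AC220 replicate 1 (adjusted p = 0.0292, and 0.0292 to 0.537 over the alternatives). RB1 had 11.0, 9.95 and 17.6 CPM under DMSO and 15.2, 22.0 and 26.3 CPM under AC220 (log2 fold change 0.72, 95% interval 0.02 to 1.43, adjusted p = 0.230). DMSO replicate 3 and AC220 replicate 1 overlapped. RBL1 ranged from 32.7 to 37.7 and from 31.2 to 34.7 CPM (-0.09, adjusted p = 0.694), RBL2 from 28.5 to 30.2 and from 26.2 to 31.0 CPM (-0.02, adjusted p = 0.929), and E2F7 from 1.59 to 2.18 and from 1.60 to 2.07 CPM (-0.03, adjusted p = 0.979).

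The difference between the responses was tested as an interaction, the MV4-11 log2 fold change minus that of OCI-AML3. It was called for 7 of 10 members, against 46.7% of all genes. All 7 were lower in MV4-11, against 23.7% of genes lower and 23.0% higher. The members' median was -1.54, and that of all tested genes was 0.03. The largest of these differences in size was that of E2F2 at -3.30 (adjusted p = 4.12e-11), followed by E2F8 at -3.01 (adjusted p = 2.78e-08) and E2F1 at -2.89 (adjusted p = 1.01e-14). For E2F8 and E2F4 the fitted changes had opposite signs in the lines, and the difference for E2F4 was -0.71 (adjusted p = 7.80e-05). E2F7 differed by -1.95 (adjusted p = 0.00865), or by -2.92 without MV4-11 AC220 replicate 1 (adjusted p = 0.00118, and 0.00118 to 0.0342 over the alternatives). TFDP1 and RBL1, genes of a dimer partner and a pocket protein, both differed by -1.54 (adjusted p = 6.36e-10 and 1.05e-08).

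E2F3, RB1 and RBL2 did not pass the test of the difference. For E2F3 it was -0.12 (95% interval -0.35 to 0.10, adjusted p = 0.382). For RBL2 it was 0.28 (95% interval 0.01 to 0.55, adjusted p = 0.0822). It passed, higher in MV4-11, with median-ratio size factors (0.31, adjusted p = 0.0497), in limma on the deposited values (0.37, adjusted p = 0.0233), without MV4-11 AC220 replicate 2 (0.34, adjusted p = 0.0436) and without OCI-AML3 AC220 replicate 3 (0.33, adjusted p = 0.0496). For RB1 it was -1.06 (95% interval -2.01 to -0.11, adjusted p = 0.0657), and in DESeq2 on all 12 libraries it passed (-1.03, adjusted p = 0.0401). In edgeR it passed without MV4-11 AC220 replicate 1 (-1.34, adjusted p = 0.0155) and, in OCI-AML3, without DMSO replicate 3 (-1.36) or without AC220 replicate 1 (-1.24). Over the alternatives the adjusted p ran from 0.0155 to 0.146 for RB1 and from 0.0233 to 0.231 for RBL2.

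**Figure D2:**
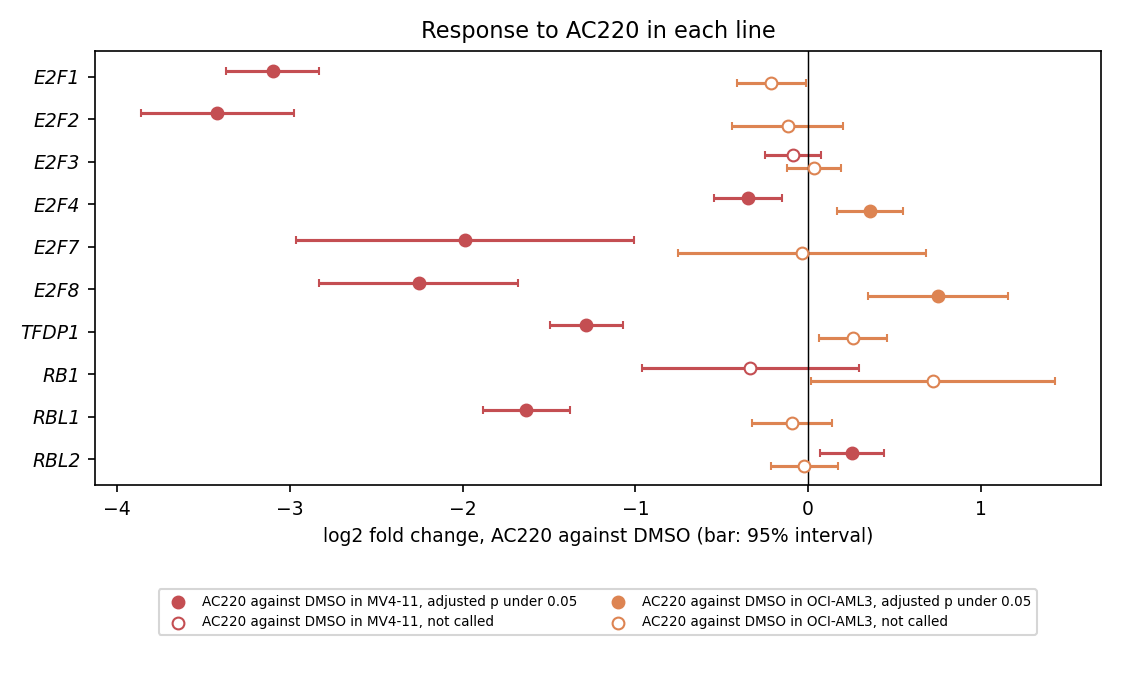
Log2 fold change of AC220 against DMSO (horizontal axis) for each of the 10 members (vertical axis) in MV4-11 and OCI-AML3; filled points passed an adjusted p of 0.05 and bars are 95% intervals. E2F1 and E2F2 lie at -3.10 and -3.42 in MV4-11 and at -0.21 and -0.12 in OCI-AML3, and both E2F3 points lie near 0.

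Under DMSO the lines differed in 4 of the 10 members, against 65.5% of all genes. RB1 and RBL2 were higher in MV4-11, against 32.1% of genes higher, and E2F1 and E2F3 were lower, against 33.4% lower. The members' median log2 difference was 0.03, and that of all genes was 0.01. RB1 was 2.95-fold higher in MV4-11 (33.2 to 42.0 CPM against 9.95 to 17.6 CPM in OCI-AML3, log2 difference 1.56, SE 0.298, adjusted p = 0.00125). RBL2 was higher by 0.39 (adjusted p = 0.000500), at 37.8 to 39.0 CPM against 28.5 to 30.2 CPM. E2F3 was lower in MV4-11, at 52.8 to 56.5 CPM against 108 to 115 CPM (log2 difference -1.04, adjusted p = 1.09e-12). E2F1 was lower by a smaller amount, 31.9 to 35.0 CPM against 43.7 to 49.5 CPM (-0.46, adjusted p = 0.000143). E2F2 (0.12), E2F4 (0.14), E2F7 (-0.37), E2F8 (-0.22), TFDP1 (-0.04) and RBL1 (0.10) did not pass, with adjusted p between 0.189 and 0.755. E2F4 passed only without OCI-AML3 DMSO replicate 3 (0.26, adjusted p = 0.0200, and 0.0200 to 0.458 over the alternatives).

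Under AC220 the lines differed in 9 members, against 76.2% of all genes. In MV4-11, 8 members were lower, against 39.5% of genes, and RBL2 was higher, against 36.7%. The members' median was -1.51, and that of all genes was -0.03. These comparisons share libraries with those of the drug and are not independent of them. E2F1 differed by -3.35, E2F8 by -3.23, E2F2 by -3.18 and E2F7 by -2.32. TFDP1 differed by -1.58, RBL1 by -1.44, E2F3 by -1.16 and E2F4 by -0.56, each with an adjusted p of 6.58e-05 or less. RBL2 was higher by 0.67 (adjusted p = 2.12e-07), and RB1 (0.50, adjusted p = 0.144) did not pass.

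In order of level, MV4-11 AC220 was the lowest group for 8 members, all but RB1 and RBL2. For E2F1 the order from lowest was MV4-11 AC220 (3.92 ± 0.631 CPM, mean ± SD of 3 libraries), MV4-11 DMSO (33.5 ± 1.54), OCI-AML3 AC220 (39.8 ± 3.76) and OCI-AML3 DMSO (46.1 ± 3.05), with no overlap between neighbours. For E2F2, E2F7 and RBL1 the lowest group was apart and the ranges of the next 3 overlapped from neighbour to neighbour. E2F3 was ordered by line, MV4-11 at 51.3 ± 5.29 CPM under AC220 and 54.5 ± 1.88 under DMSO, OCI-AML3 at 112 ± 3.50 under DMSO and 115 ± 6.54 under AC220, with overlap within a line and none between lines. E2F8 and TFDP1 had the same order, with MV4-11 AC220 lowest, the overlapping DMSO groups between, and OCI-AML3 AC220 highest and apart (8.63 ± 1.27 CPM for E2F8 and 87.5 ± 10.4 for TFDP1). E2F4 ran from MV4-11 AC220 (34.4 ± 2.40 CPM) through the overlapping DMSO groups to OCI-AML3 AC220 (50.8 ± 3.06). RBL2 was ordered the other way, from the overlapping OCI-AML3 groups (28.8 ± 2.43 and 29.2 ± 0.837 CPM) to MV4-11 DMSO (38.3 ± 0.619) and MV4-11 AC220 (45.6 ± 3.74). RB1 ran from OCI-AML3 DMSO (12.9 ± 4.16 CPM) over OCI-AML3 AC220 (21.2 ± 5.58) and MV4-11 AC220 (30.1 ± 9.46) to MV4-11 DMSO (38.2 ± 4.55), and every pair of neighbours overlapped.

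The make-up of the activator transcripts shifted with these changes. Among the summed counts of E2F1, E2F2 and E2F3 in MV4-11, E2F3 took 54.1 ± 1.56% under DMSO and 90.9 ± 2.39% under AC220 (mean ± SD, n = 3). E2F1 went from 33.3 ± 0.649% to 7.05 ± 1.73%, and E2F2 from 12.6 ± 1.61% to 2.09 ± 0.894%. In OCI-AML3 the E2F3 share was 66.0 ± 0.831% under DMSO and 69.4 ± 2.33% under AC220. The summed level of the 3 genes was 101 ± 2.67 CPM in MV4-11 DMSO, 56.3 ± 4.41 in MV4-11 AC220, 169.5 ± 6.09 in OCI-AML3 DMSO and 165 ± 6.79 in OCI-AML3 AC220. These shares are descriptions of tag counts, with no test.

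Among the pocket protein transcripts of MV4-11, RB1, RBL1 and RBL2 held 33.5 ± 3.96%, 32.8 ± 4.65% and 33.7 ± 1.44% of the summed counts under DMSO. Under AC220 they held 33.8 ± 5.98%, 13.8 ± 1.84% and 52.4 ± 4.56%, and the RBL1 share was smaller and the RBL2 share larger than in any MV4-11 DMSO library. In OCI-AML3 the shares were 16.6 ± 4.87%, 45.4 ± 3.86% and 38.0 ± 2.11% under DMSO and 25.4 ± 4.83%, 39.7 ± 2.23% and 34.9 ± 2.74% under AC220. The summed pocket protein level was 114 ± 3.21 CPM in MV4-11 DMSO and 87.7 ± 13.6 in MV4-11 AC220, and 77.1 ± 2.38 and 82.7 ± 8.12 in OCI-AML3. Of the summed counts of E2F7 and E2F8 in MV4-11, E2F8 held 74.1 ± 5.37% under DMSO and 75.3 ± 15.5% under AC220, the latter from only 10 to 22 counts per library. Whether these genes fell by the same proportion was not tested.

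**Figure D3:**
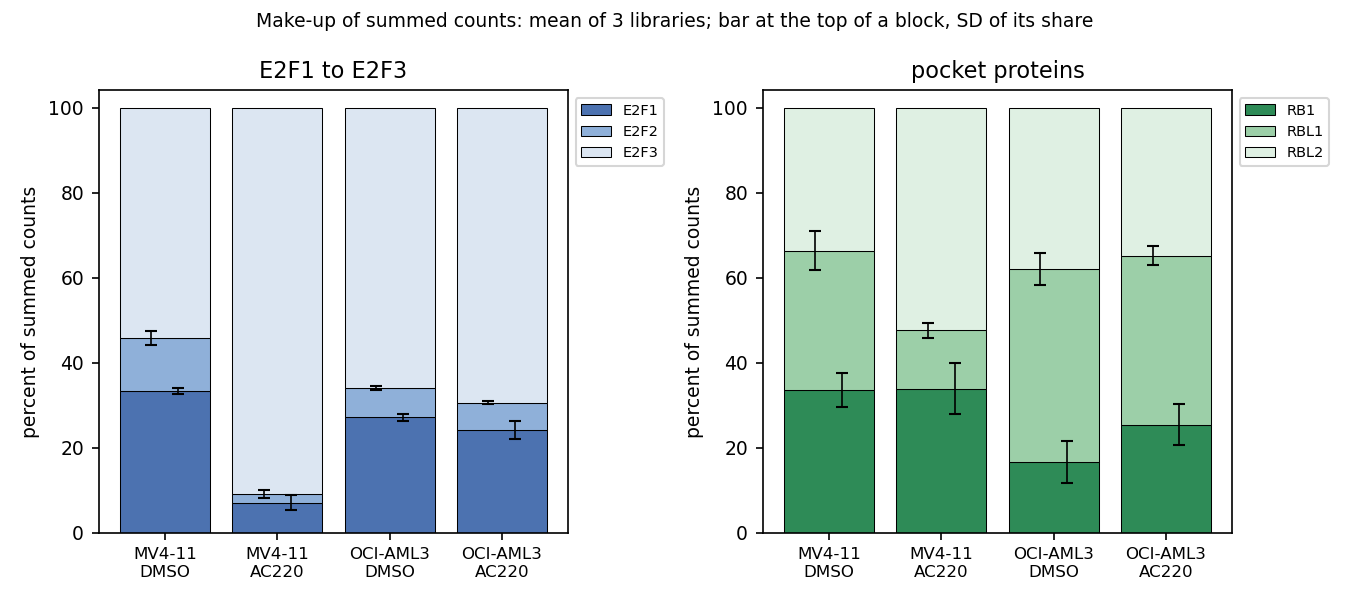
Share of each gene in the summed counts of E2F1, E2F2 and E2F3 (left) and of RB1, RBL1 and RBL2 (right), in percent (vertical axis), by group (horizontal axis); blocks are means of 3 libraries and the bar at the top of a block is the SD of that block's share. In MV4-11 AC220 the E2F3 block reaches 90.9% and the RBL2 block 52.4%.

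Of the other E2F and DP genes, 3 were tested, and 1 was higher and 1 lower in MV4-11, against 31.5% and 26.9% of all genes. In either direction, 58.3% of all genes were called. E2F5, another partner of the pocket proteins, rose from 76.0 ± 4.17 to 93.2 ± 8.37 CPM (log2 fold change 0.29, adjusted p = 0.00179). TFDP2, the other DP partner, had a log2 fold change of -0.41 (adjusted p = 0.0255), and fell from 10.3 ± 1.45 to 7.63 ± 2.10 CPM with overlapping groups. In limma-voom no gene of this list was called lower. E2F6, a repressor that pocket proteins do not bind, had -0.20 and did not pass. TFDP3 had 1 count in all and was not tested. The differences between the lines in these responses did not pass in edgeR or limma-voom for any of the 3 tested genes. DESeq2 called 1 of the 3, higher in MV4-11, and 1 was higher at an unadjusted p under 0.05 in edgeR. In OCI-AML3, 0 of the 3 were called by edgeR, DESeq2 or limma-voom, or at an unadjusted p under 0.05.

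**Figure D4:**
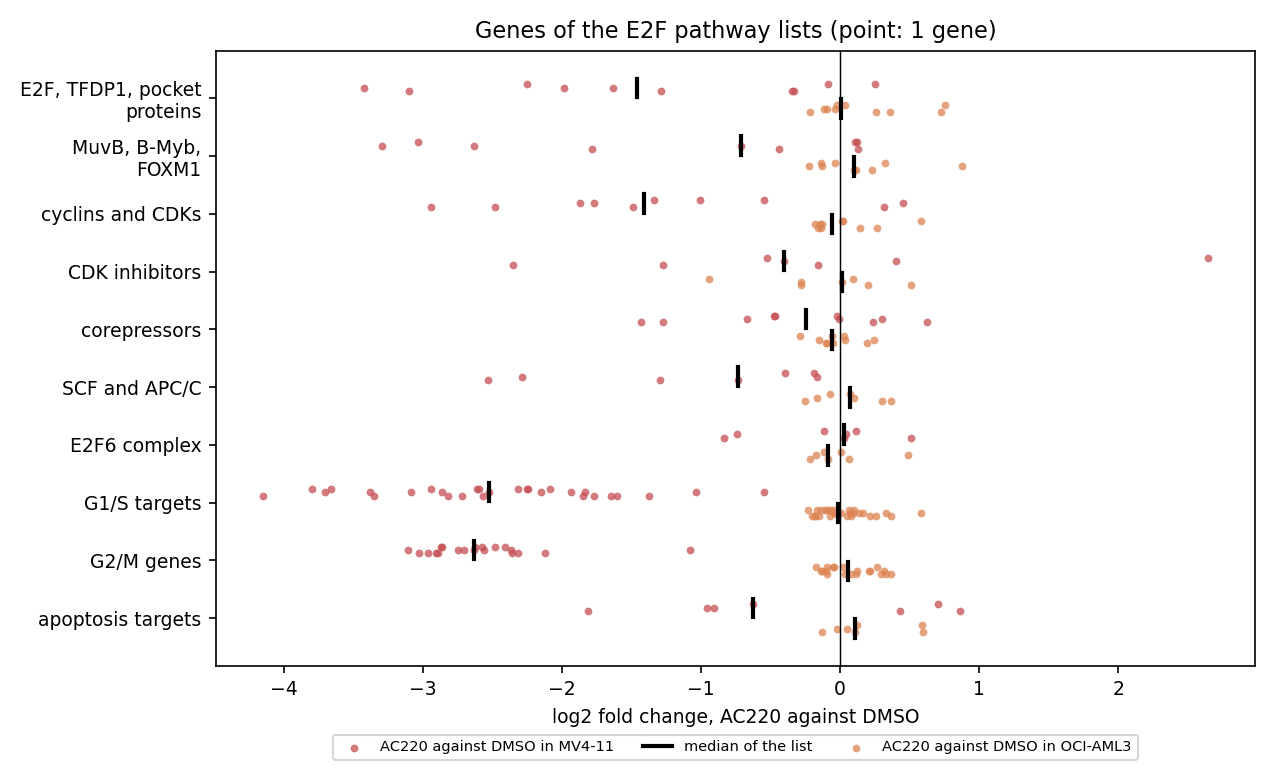
Log2 fold change of AC220 against DMSO (horizontal axis) for every tested gene of the members and of 9 lists around the E2F circuit (vertical axis), 1 point per gene and line, with the list's median as a vertical mark. In MV4-11 the G1/S and G2/M genes all lie below 0 with medians of -2.53 and -2.63, while the OCI-AML3 medians of these lists lie at -0.01 and 0.05.

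MYBL2 (B-Myb) and FOXM1 are partners of the MuvB core that switch it from silencing to activating late cell cycle genes. A list of the core, both partners, MYBL1 and the kinase DYRK1A had a median log2 fold change of -0.71 in MV4-11 (all genes 0.07). Of its 9 genes, 6 were lower and 0 higher. This count and those of the lists that follow stand beside 26.9% of all genes lower and 31.5% higher in that line. MYBL2, an E2F target, stood at 143 ± 5.99 CPM under DMSO and 14.7 ± 2.85 under AC220 (log2 fold change -3.30, adjusted p = 1.56e-19). FOXM1 fell by 2.63 on the log2 scale (adjusted p = 2.59e-18). LIN9, a subunit of the core, fell by 3.03 (adjusted p = 1.16e-10), from 5.22 ± 0.400 to 0.616 ± 0.197 CPM. RBBP4 and LIN37, also of the core, were not lower, with means of 117 and 6.72 CPM under DMSO and 128 and 7.28 under AC220. In OCI-AML3, 1 of the 9 was called, LIN54, the DNA-binding subunit of the core, which rose by 0.88 (adjusted p = 0.0105). The edgeR counts of this list and the following ones in OCI-AML3 stand beside 3.44% of all genes higher and 0.508% lower. In limma on the deposited values, 0 of all genes were called higher in OCI-AML3, so no rise in these lists was called there. Without OCI-AML3 DMSO replicate 1, DMSO replicate 2 and AC220 replicate 3 in turn, 12, 13 and 20 of all genes were called higher.

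Of 10 cyclins, kinases and the phosphatase CDC25A that set pocket protein phosphorylation, 8 were lower and 1 higher in MV4-11 (median -1.41). CCNA2, the S phase cyclin A, fell by 2.48 (adjusted p = 1.98e-19), CDK2, its kinase, by 1.87 (adjusted p = 1.78e-18) and CDC25A, which activates CDK2, by 2.94 (adjusted p = 3.29e-17). CDK6, a kinase of the D cyclins, rose by 0.32 (adjusted p = 0.000652). In OCI-AML3, edgeR called 0 of the 10, with 2 higher and 1 lower at an unadjusted p under 0.05, DESeq2 called 1 higher and limma-voom 2 higher. Under DMSO the lines differed in the D cyclins CCND2 and CCND1. CCND2 stood at 60.7 ± 2.50 CPM in MV4-11 and 0.451 ± 0.129 in OCI-AML3, and CCND1 at 0.251 ± 0.117 and 31.8 ± 2.92 CPM. CCND3, the most abundant D cyclin in both lines, stood at 184 ± 8.74 CPM in MV4-11 DMSO and 170 ± 10.1 in OCI-AML3 DMSO.

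Of 7 inhibitors of these kinases, 3 were lower and 2 higher in MV4-11 (median -0.40), or 5 called, against 58.3% of all genes called in either direction. CDKN1A (p21) fell by 2.35 (adjusted p = 2.60e-17) and CDKN2D (p19) by 1.27 (adjusted p = 8.48e-11). CDKN1C (p57) rose by 2.64 (adjusted p = 1.14e-08), from 1.21 ± 0.276 to 7.68 ± 2.51 CPM, and CDKN1B (p27) rose by 0.40 (adjusted p = 8.19e-05). In OCI-AML3 only CDKN2A, which encodes p16, was called among the 7, higher by 0.51 (adjusted p = 0.0153).

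Of 10 corepressors that pocket proteins recruit, 5 were lower and 2 higher in MV4-11 (median -0.24), against 26.9% and 31.5% of all genes. DNMT1, the maintenance DNA methyltransferase, fell by 1.27 (adjusted p = 1.43e-16), and RBBP7, a histone-binding subunit of deacetylase complexes, by 0.67 (adjusted p = 2.96e-08). KDM5A, a histone demethylase found through its binding to RB1, rose by 0.62 (adjusted p = 1.87e-09), and SMARCA2, a chromatin remodelling ATPase, by 0.30 (adjusted p = 0.00128). In OCI-AML3, SMARCA4, its close relative, fell by 0.29 (adjusted p = 0.0190). In MV4-11, SMARCA4 was lower after AC220 as well, at 445 ± 16.8 CPM under DMSO and 322 ± 16.7 under AC220. Among 7 genes of the ubiquitin ligases SCF and APC/C that turn E2F and its regulators over, 6 were lower and 0 higher in MV4-11 (median -0.73). In OCI-AML3, edgeR and DESeq2 called 0 of them, limma-voom called 2 higher, and 2 were higher and 1 lower at an unadjusted p under 0.05. CKS1B, a cofactor of SCF, fell by 2.29 (adjusted p = 4.62e-22), CCNF, the F-box protein cyclin F, by 2.53 (adjusted p = 1.46e-18), and FBXO5, an inhibitor of APC/C, by 1.29 (adjusted p = 7.37e-10).

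Transcripts that E2F factors and MuvB complexes are known to control moved with the members in MV4-11. All 29 measured genes of a list of 30 G1/S targets of E2F were lower, against 26.9% of all genes (median -2.53, range -4.15 to -0.54). RRM2, the small subunit of ribonucleotide reductase, fell by 3.80 (adjusted p = 1.14e-24), and MCM4 and MCM3, subunits of the replicative helicase, by 2.60 (adjusted p = 5.13e-23) and 2.15 (adjusted p = 5.09e-21). All 20 G2/M genes of the MuvB complexes were lower (median -2.63, range -3.10 to -1.08). Those with the smallest adjusted p were MKI67, the Ki-67 antigen, which fell by 2.87 (adjusted p = 6.63e-25), TOP2A, topoisomerase II alpha (-2.63, adjusted p = 1.37e-22), and PLK1, a mitotic kinase (-3.10, adjusted p = 5.09e-21). CCNE1, CCNE2, CDC25A and CCNA2 stand in 2 of the lists. The difference between the lines was called for all 29 and all 20 genes, lower in MV4-11, against 23.7% of all genes lower. In OCI-AML3, edgeR called 0 of the 29 G1/S genes (median -0.01), with 5 higher and 3 lower at an unadjusted p under 0.05, and DESeq2 and limma-voom each called 3 higher. In the same line, 2 of the 20 G2/M genes, NUF2 (0.36, adjusted p = 0.0175) and BUB1B (0.32, adjusted p = 0.0453), were higher (median 0.05).

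Markers moved with the drug in MV4-11 as well. The summed level of the 10 myeloid markers was 660 to 697 CPM under DMSO and 1027 to 1116 CPM under AC220, with 7 of 10 higher and CD14 lower on 16 counts against 1. In OCI-AML3 it was 1092 to 1157 and 1101 to 1225 CPM. The 13 measured markers of other lineages summed to 13.2 to 15.1 CPM in MV4-11 DMSO and to 21.6 to 30.4 CPM in MV4-11 AC220, and to at most 1.32 CPM in OCI-AML3. Of the 4 that were tested, 3 were higher in MV4-11 after AC220, against 31.5% of all genes. They were CD79A (log2 fold change 2.91, adjusted p = 1.69e-05), PAX5 (2.14, adjusted p = 4.32e-05) and KRT8 (0.58, adjusted p = 0.00735). Of 6 genes that respond to FLT3 signalling, 5 were lower in MV4-11, among them DUSP6 (-3.97), ETV5 (-3.89) and EGR1 (-4.24). In OCI-AML3, 1 of the 6 was called, DUSP6, which rose by 0.54 (adjusted p = 0.0105), and 3 were higher at an unadjusted p under 0.05. The part of the cell cycle distribution and of the marker changes in the members' values was not tested.

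The genes whose pattern over the 12 libraries was most like a member's were found among 11022 protein-coding genes, by the mean absolute difference of centred log2 (CPM + 0.5). For E2F1 they were RAD51AP1 (0.104), GINS2 (0.145), NCAPG (0.146) and JDP2 (0.148). RAD51AP1 stood at 44.3 CPM in MV4-11 DMSO, 5.40 in MV4-11 AC220, 56.0 in OCI-AML3 DMSO and 54.7 in OCI-AML3 AC220. For RBL2 they included WTAP (0.0555), PJA2 (0.0560) and MBNL1 (0.0631). PJA2 stood at 66.2, 80.1, 51.6 and 52.7 CPM in the same order of groups. RB1 had no gene as close: LSM14A (0.159), TMSB4X (0.161), TIGAR (0.174) and PTPN9 (0.191) were the nearest. LSM14A stood at 103, 99.2, 41.5 and 62.3 CPM. These values are descriptions over libraries that share their groups, with no test.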

How the data were processed

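Total RNA of 12 libraries was read with the Lexogen QuantSeq 3' kit, per the labels' protocols, which samples the 3' ends of transcripts. The authors deposited raw read counts per gene, and a table of normalised log2 values for 11075 genes, which holds 9 of the 10 members (not E2F7) and served only as an alternative input. Per the submitters' processing notes, the tools were HISAT2 2.0.4, featureCounts of Subread 2.0.0, limma 3.42.2 in R 3.6.1, cutadapt 1.9.1, FastQC 0.11.6 and bcl2fastq 2.17.1.14, with build hg19. The annotation, the strand setting and the handling of reads with several positions are not given in the sources used here, so reads of overlapping genes may be divided or lost.

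Of 19505 rows, 1 had no gene name (0.00343 to 0.00503% of counts) and was left out. Groups and replicate numbers come from the sample titles. Replicates of a group differed beyond counting noise (chi-square per degree of freedom 2.79 to 10.6), so each library counted as 1 replicate. In R 4.3.3, genes were filtered with filterByExpr, scaled by TMM and fitted over all 12 libraries with edgeR 4.0.16 (robust quasi-likelihood F test, a mean per group, 8 residual degrees of freedom, common biological coefficient of variation 8.28%), with Benjamini-Hochberg adjustment over the 12392 genes tested and a threshold of 0.05. Intervals of log2 fold changes are 95% intervals from the same fit. Each line's AC220 libraries were compared with its DMSO libraries, the responses of the lines with each other (interaction), and the lines under each treatment. The procedure was also run on simulated counts in which few genes changed. That run does not cover a response as wide as the one in MV4-11.

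Other settings tried were a stricter filter (at least 1 CPM in 3 libraries and a mean of 20 counts) or none, median-ratio size factors, DESeq2 1.42.0, limma-voom and limma 3.58.1 on the deposited values, a replicate block, the compared libraries alone, and each library left out.

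The members and the gene lists were chosen with earlier results of these data known. By rule, all 10 members are named. From each other list up to 3 genes with the smallest adjusted p for AC220 in MV4-11 are named, plus up to 3 called against the list's majority. Genes called in OCI-AML3, the D cyclins, E2F6 and TFDP3 were named after their values were seen. Genes most like E2F1, RB1 and RBL2 needed a mean of at least 20 counts. Promoter windows are RefSeq's on GRCh38.p14, and exon overlaps are from GENCODE. Since the reads were placed on hg19, no coordinates of reads are given. UHRF1 and PECAM1, which stand in the lists, were not analysed here, and a few genes that the naming rule would include are not reported here.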

Additional observations from a re-analysis of the deposited data

Results flagged for a closer look

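For 7 of the 10 members the response to AC220 differed between MV4-11 and OCI-AML3 by the interaction term of the edgeR model. The differences of the log2 fold changes (MV4-11 minus OCI-AML3) were -2.89 for E2F1, -3.30 for E2F2, -0.71 for E2F4, -1.95 for E2F7, -3.01 for E2F8, -1.54 for TFDP1 and -1.54 for RBL1. In E2F4 and E2F8 the fitted change was negative in MV4-11 and positive in OCI-AML3, and the OCI-AML3 calls of both were lost when DMSO replicate 1, DMSO replicate 2, AC220 replicate 2 or AC220 replicate 3 was left out. The test of the difference was passed by each of the 7 under every alternative run in which the gene was tested.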

How the results depend on the processing

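Of 979 values for the members' log2 fold changes under the alternatives, 947 kept their direction and their side of the threshold. A call was lost in 15 values (5 for RBL2 in MV4-11, 5 each for E2F4 and E2F8 in OCI-AML3) and gained in 11. A sign changed in 6, all with libraries left out and none of them in a value that had passed the test. With 1 library left out, the OCI-AML3 log2 fold change ran from -0.16 to 0.080 for E2F7 (0.057 without DMSO replicate 1, 0.00105 without DMSO replicate 3) and from -0.082 to 0.043 for RBL2. The DMSO difference between the lines ran from -0.078 to 0.012 for TFDP1 and from -0.026 to 0.20 for RBL1. The cause was not tested. In MV4-11, 7 or 8 members were called under the alternatives. In OCI-AML3 the number of members called was 0 in limma on the deposited values and from 0 to 3 with 1 library left out. Over all genes the OCI-AML3 calls numbered 836 without a filter (663 higher, 173 lower), 813 in DESeq2 (586 and 227), 1 in limma on the deposited values, and 13 to 1136 with 1 library left out, against 489. E2F7 was not in the deposited log2 table and was dropped by the stricter filter. The fit of only the compared libraries was not run for the difference between the lines, which needs all 4 groups. The shares of E2F1 to E2F3, of the pocket proteins and of E2F7 and E2F8 moved by less than 1 SD under the alternatives run. Leaving 1 of 3 libraries out cannot move their mean by 1 SD, so those runs could not have come out otherwise. They do not show that the shares are stable. Depth limits E2F7 and E2F8 most: in MV4-11 AC220 they rest on 13 and 32 counts over 3 libraries.

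The replicate numbers of the titles do not state a shared culture or day. Deviations from the group means correlated at -0.25 to 0.24 for 18 pairs of libraries with the same number and at -0.19 to 0.28 for 36 pairs with other numbers, and 14 of 36 comparisons of a library with another group were highest for its own number. With the replicate block, the members called numbered 8 for AC220 in MV4-11, 2 in OCI-AML3, 7 for the difference, and 4 and 9 between the lines under DMSO and AC220, as without it. All genes called with the block numbered 7080, 381, 5626, 8008 and 9346.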

Other observations

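Genes named as apoptosis targets of E2F1 did not move together with E2F1 in MV4-11. Of 7 genes, 3 were higher and 3 lower, against 31.5% and 26.9% of all genes. APAF1, the core of the apoptosome, rose from 16.4 ± 1.16 to 29.9 ± 2.64 CPM (log2 fold change 0.86, adjusted p = 3.83e-08), and BCL2L11, the BH3-only protein BIM, from 20.7 ± 2.13 to 33.7 ± 6.13 CPM (0.70, adjusted p = 3.79e-05). BBC3 (PUMA) fell from 119 ± 6.10 to 63.6 ± 5.98 CPM (log2 fold change -0.91, adjusted p = 3.73e-11), and PMAIP1 (NOXA) by 0.62 (adjusted p = 1.73e-05). In OCI-AML3, BCL2L11 rose as well (0.59, adjusted p = 0.0180), and its response did not pass the test of a difference between the lines (adjusted p = 0.657). That OCI-AML3 call was absent in limma on the deposited values, which called 0 of all genes higher in that line. TP73, a p53 relative, stood at 18.8 ± 0.526 CPM in OCI-AML3 DMSO and at 0.120 ± 0.116 CPM in MV4-11 DMSO.

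Among 7 partners of E2F6, the repressor that acts without pocket proteins, 2 were lower and 1 higher in MV4-11, shares near or below the 26.9% and 31.5% of all genes. CBX3, a heterochromatin protein, fell from 886 ± 32.7 to 497 ± 22.5 CPM (log2 fold change -0.84, adjusted p = 8.16e-13), and PCGF6, a Polycomb subunit, by 0.74 (adjusted p = 0.00417). MGA, the scaffold of the complex, rose from 25.6 ± 2.62 to 36.6 ± 2.52 CPM (0.51, adjusted p = 5.52e-05). In OCI-AML3, 0 of the 7 were called by edgeR, DESeq2 or limma-voom, with 1 higher and 1 lower at an unadjusted p under 0.05.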
